A study of Mus musculus with 1 sample.

Results

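CD4 T cells of the pancreas were examined in 1 single-cell RNA sequencing library, and 139 of 10129 retained cells (1.37%, 95% interval 1.15 to 1.62) were CD4 T cells by the rule used here. The library pooled the pancreata of 5 to 6 mice of both sexes at 2 weeks of age. Their genotype was Scap f/f, which the labels call wildtype. Both Scap alleles in these mice carry loxP sites but no Cre recombinase is present, so they are the unrecombined controls of the study and not mice with untouched alleles. The study asked what loss of pancreatic Scap, the gene of a protein that escorts the sterol-sensing SREBP transcription factors, does to the cells of the organ. The Scap knockout library was not analysed here, so no genotype was compared. Because the animals were pooled into 1 library there was no replicate, no test between animals was possible, and the intervals below cover counting error only.

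CD4 T cells carry an alpha beta T cell receptor and the CD4 coreceptor, which binds MHC class II on antigen-presenting cells. In the thymus the transcription factor ThPOK, encoded by Zbtb7b, directs precursors to the CD4 lineage, and RUNX3 directs them to the CD8 lineage. Naive CD4 T cells leave the thymus, recirculate through lymphoid organs under homing receptors such as CCR7, and on activation become helper cells that express CD40 ligand and cytokines. In the pancreas, T cells are best known from autoimmune diabetes and pancreatitis.

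The members were chosen by their own UMIs (unique molecular identifiers, the tags by which captured transcripts are counted), so the genes named next describe the choice and are not findings. The total of a member lay above 800 and below 10000 UMIs, with mitochondrial genes under 15% of it. It had at least 2 UMIs over Cd3d, Cd3e, Cd3g and Trac, which encode chains of the T cell receptor complex, and at least 1 UMI of Cd4 or Cd40lg. It had 0 UMIs of Cd8a and Cd8b1 and of the cycle genes Mki67 and Top2a, at most 1 UMI over the B cell genes Cd79a, Cd79b and Ms4a1, at most 1 over Ikzf2, Ctla4, Izumo1r, Zbtb16, Gzma and Xcl1, which mark regulatory, innate-like and cytotoxic cells, and under 10 over the collagen genes Col1a1 and Col3a1. The Cd4 gene lies at chr6:124864692-124888221 on the minus strand and Cd40lg at chrX:57212143-57224042 on the plus strand of GRCm38. Members held 89 Cd4 UMIs in 71 cells and 109 Cd40lg UMIs in 87 cells. By route of entry, 52 cells had Cd4 UMIs alone, 68 had Cd40lg UMIs alone and 19 had both, and the coreceptor criterion rested on exactly 1 UMI in 97 of the 139 cells. The CD3 sum ranged from 2 in 23 cells to 28, with a median of 5.

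At the edge of the CD3 criterion, 14 cells with 1 UMI fewer but otherwise inside the rule held 7718 CPM ( the UMIs of a gene or list per 1000000 UMIs of the cells summed) of a list of 15 naive T cell genes, and the 23 cells just inside held 7467. Another 27 cells were left out only by the regulatory and innate-like criterion, 20 only by the collagen criterion, 19 only by the cycle criterion, 5 only by the B cell criterion and 4 only by the CD8 criterion. A further 282 T cells met every criterion except a Cd4 or Cd40lg UMI, and had no Cd8 UMI either. The rule cannot tell whether those 282 cells belong to the CD4 lineage, so the number of CD4 T cells counts only cells in which Cd4 or Cd40lg RNA was captured.

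The 139 members held 296702 UMIs, from 826 to 9743 per cell with a median of 1834, and a median of 935.0 detected genes. Mitochondrial genes took 2.71% of their UMIs and ribosomal protein genes 26.9%. The cells they were set beside were cut by the same genes: 206 CD8 T cells (474713 UMIs, median 1884 per cell), 152 regulatory and innate-like T cells (399142 UMIs, median 2170), 288 B cells (516526 UMIs, median 1454) and 5783 fibroblasts (18313104 UMIs, median 2627). CD8 T cells met the same limits but had a Cd8a or Cd8b1 UMI and no Cd4 or Cd40lg UMI, and regulatory and innate-like T cells had at least 2 UMIs over the 6 genes from Ikzf2 to Xcl1, whatever their coreceptors. B cells had at least 3 UMIs of the B cell genes and none of the CD3 genes, and fibroblasts at least 10 collagen UMIs with no Ptprc, CD3 or B cell UMI. Of 783 T cells in all, 17.8% (15.1 to 20.6) were CD4 T cells, 26.3% CD8 T cells, 36.0% had neither coreceptor, 0.511% had both and 19.4% were regulatory or innate-like. Among the 345 cells of the CD4 and CD8 classes the CD4 share was 40.3% (35.1 to 45.7).

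The label was described by Lef1 and Trat1, its markers that the rule did not use. They came with the label, with earlier results of these data known, so they are no independent test of it. Lef1 (chr3:131110471-131224356, plus strand), a transcription factor of early and naive T cells, had a UMI in 107 members (77.0% at a median depth of 1834 UMIs), against 7.99% of B cells and 1.02% of fibroblasts. With every cell thinned to 800 UMIs these shares were 54.7%, 3.47% and 0.311%. Lef1 did not separate the coreceptor classes, with a UMI in 77.7% of CD8 T cells. Trat1 (chr16:48730774-48772021, minus strand), an adaptor bound to the T cell receptor complex, had 26 UMIs in 21 members (15.1%), 9 UMIs in 7 CD8 T cells (3.40%) and 0 UMIs in B cells. At least 1 UMI of Lef1 or Trat1 was present in 110 of 139 members (79.1%, 71.4 to 85.6). Foxp3, the factor of regulatory T cells, and Il2ra had 0 UMIs in the 139 members. The exact interval for the share of members with a UMI of either gene ran up to 2.62%. The rule had already left out cells with at least 2 UMIs over genes that mark regulatory cells. These counts of 0 are thus no test of the label. Lef1 and Trat1 went with the T cell part of the label. Only Trat1 also differed by more than 2-fold between the CD4 and CD8 classes, at 87.6 against 19.0 CPM (ratio 4.62, 2.10 to 11.2).

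The nearest neighbours of the members are given as a description, since all other genes of the same cells were used to find them. With the genes of the rule removed, 77.3% of the 20 nearest neighbours of a member in expression space were cells of a T cell class, which made up 7.73% of retained cells, and 133 of the 139 members had mostly T cells around them. CD4 T cells made up 31.6% of these neighbours, T cells with neither coreceptor 33.2%, regulatory and innate-like T cells 6.91% and CD8 T cells 4.78%. B cells were 0% of the neighbours, fibroblasts 0.252% and cells of no named class 22.5%, and 2 members had no T cell neighbour. CD8 T cells in turn had 46.7% CD8 and 4.83% CD4 neighbours.

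CD4 T cells were also set beside all other retained cells, where the rule itself favours T cell genes. Of 14888 genes with at least 30 UMIs, 7.80% were at least 2-fold higher and 16.1% at least 2-fold lower in CD4 T cells, after adding 10 CPM to each level. Among the 15 highest were Lef1, Satb1, Gm2682, Dapl1, Skap1, Bcl11b, Cd247, Prkcq, St8sia1, Tcf7, Arhgap15, Ms4a6b, Fyb and Trbc1. Bcl11b, a factor needed for T cell commitment, stood at 590 CPM against 37.1 in the rest, and Dapl1, a gene of naive T cells, at 209 against 6.61. The 10 genes with most UMIs, leaving out mitochondrial and ribosomal protein genes, were Malat1, Tmsb4x, Gm42418, Actb, Tmsb10, Fau, Tpt1, Ctrb1, Hbb-bs and Eef1a1. Ctrb1, a digestive protease of acinar cells, and Hbb-bs, a globin of red blood cells, are not T cell products, and their spread over members is given below.

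**Figure D1:**
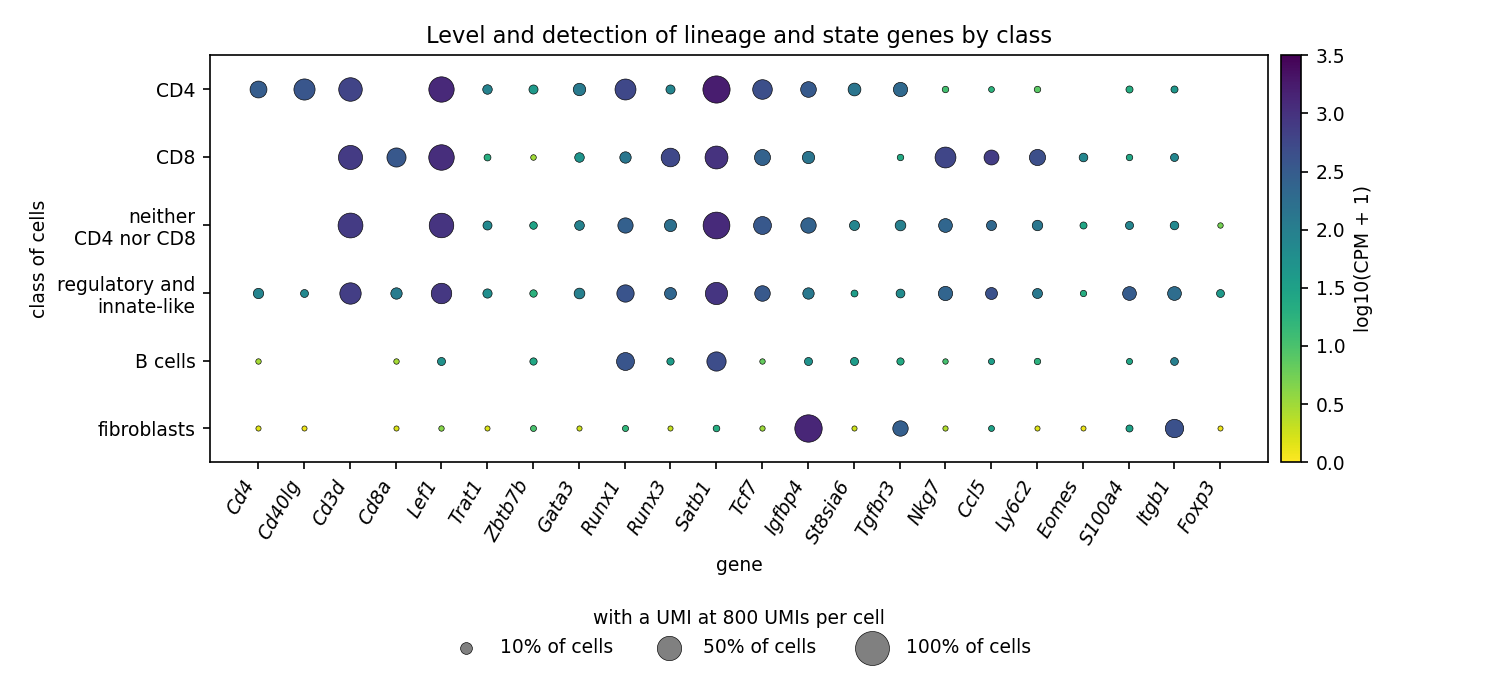
Level and detection of genes in 6 classes of cells. The x axis lists genes and the y axis classes, colour is log10 of CPM plus 1, and dot area grows with the percent of cells with a UMI after thinning each cell to 800 UMIs, with no dot where no UMI was counted. Cd4, Cd40lg, Cd3d and Cd8a were used to choose the classes. The CD4 row is dark at Lef1 and Satb1, pale at Nkg7, Ccl5 and Ly6c2, where the CD8 row is dark, and empty at Eomes and Foxp3.

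The comparison with CD8 T cells asked how both coreceptor classes of the same library differed outside the genes that divide them. CD4 T cells had less RNA of the cytotoxic and innate-like list than CD8 T cells, and more RNA of Runx1, Tox, Gata3, Igfbp4 and of the less familiar St8sia6 and Tgfbr3. Of 3762 genes with at least 30 UMIs in both classes together, 149 (3.96%) were at least 2-fold higher in CD4 T cells and 100 (2.66%) at least 2-fold lower. With at most 1 collagen UMI per cell, which left 74 CD4 T cells, 63 genes were higher and 70 lower. The balance of these counts also depended on the scaling: it was 97 to 151 with TMM factors and 128 to 136 with totals that left out mitochondrial, ribosomal protein and enzyme UMIs. The median log2 ratio over all genes moved from 0.08 to -0.08 under TMM, and the ratios below were read against that shift.

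**Figure D2:**
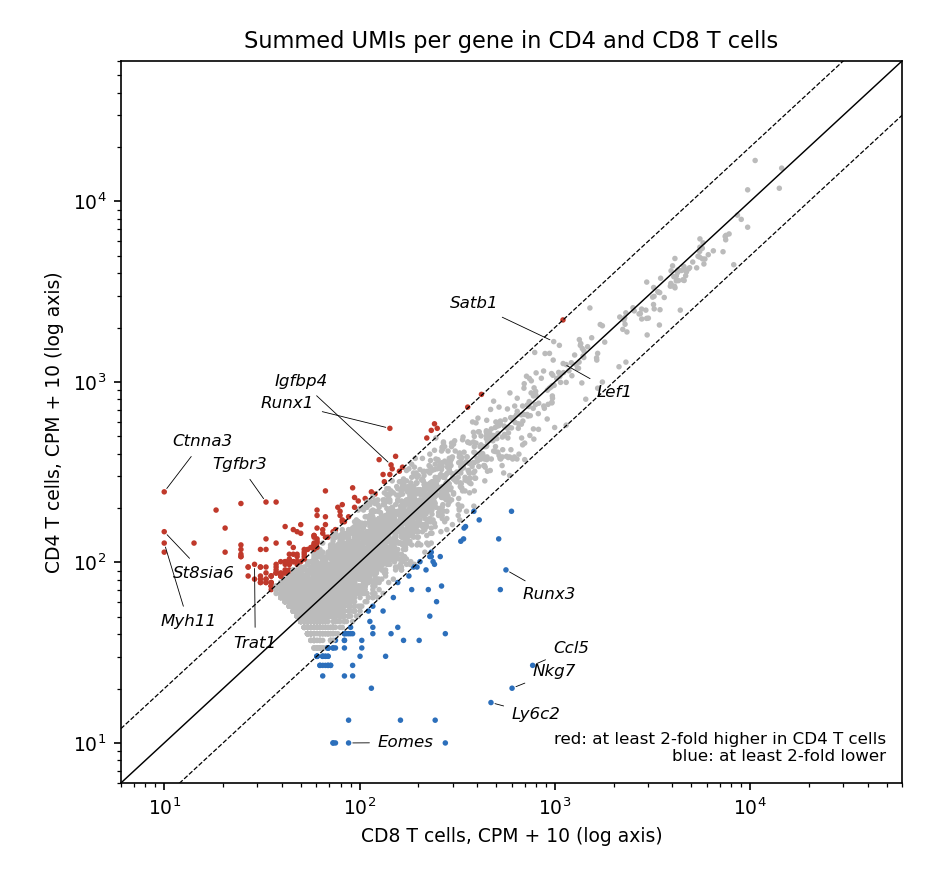
Each point is 1 of 3762 genes, with its level in CD8 T cells on the x axis and in CD4 T cells on the y axis, both as CPM plus 10 on log axes. The solid line marks equal levels and the dashed lines a 2-fold difference. Nkg7, Ccl5 and Ly6c2 lie farthest below the line among genes of high level in CD8 T cells. Ctnna3 and Myh11, at the upper left, came from essentially a single member.

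Among lineage factors with at least 30 UMIs, Runx3 and Runx1 differed most between CD4 and CD8 T cells. Runx3 (chr4:135120652-135177990, plus strand), which in the thymus favours the CD8 lineage, had 24 UMIs in 22 of 139 CD4 T cells (80.9 CPM, 51.8 to 120) and 262 UMIs in 124 of 206 CD8 T cells (552 CPM, 487 to 623). The CD8 level was thus 6.82-fold higher (4.49 to 10.8). Thinned to 800 UMIs, 5.04% of CD4 and 28.6% of CD8 T cells had a Runx3 UMI, and 0.0519% of fibroblasts did. Runx1 (chr16:92601466-92826149, minus strand), its relative, ran the other way, with 543 CPM in CD4 and 133 CPM in CD8 T cells, a ratio of 4.09 (3.04 to 5.56), and a UMI in 58.3% and 23.3% of cells. Zbtb7b, the ThPOK gene at chr3:89377644-89394776 on the minus strand, was captured rarely, with 12 UMIs in 12 CD4 T cells and 1 UMI in CD8 T cells, a ratio of 19.2 (2.84 to 821). It was under the minimum of 30 UMIs and was not counted among the genes above, and its level was 25.2 CPM in B cells and 9.45 CPM in fibroblasts beside 40.4 CPM in CD4 T cells.

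Among the 12 factors of the lineage list, 10 had enough UMIs. Of these, 3 were at least 2-fold higher in CD4 than in CD8 T cells and 1 lower, beside 3.96% and 2.66% of all genes. With TMM factors 2 were higher, where 97 of 3762 genes in all were. Runx3, the lower one, had 24 UMIs in CD4 T cells and reached the minimum with CD8 T cells, so that number is not used as support. Gata3, among the higher ones, was under the minimum in CD8 T cells and reached it with CD4 T cells. The number higher is thus not used either. The list's median log2 ratio was 0.71, beside 0.08 over all genes. The higher ones were Runx1, Tox at 576 against 232 CPM, and Gata3, a factor of CD4 T cell differentiation, at 118 against 48.5 CPM, which was the gene no longer past 2-fold with TMM factors. Tcf7 at 455 against 259 CPM and Satb1, a chromatin organiser of T cells, at 1662 against 977 CPM were higher by less than 2-fold. Over regulatory and innate-like T cells 0 of 11 factors were at least 2-fold higher and 2 lower, Myb and Runx3. Of all genes 2.08% were higher there and 3.64% lower, and the number lower is again not used as support. Across the processing alternatives the log2 ratio of Tox over that class ran from -1.05 to -0.65, and that of Runx1 from 0.21 to 0.70. A Zbtb7b UMI and a Runx3 UMI were found together in 1 member.

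The cytotoxic and innate-like list was low in CD4 T cells. Its 17 genes outside the rule summed to 64 UMIs (216 CPM, 166 to 275) in CD4 T cells and 946 UMIs (1993 CPM, 1868 to 2124) in CD8 T cells. The CD4 level was 0.108 of the CD8 level (0.0827 to 0.140). Only 6 of the 17 had at least 30 UMIs in both classes together, and the 5 of them that were at least 2-fold lower reached that minimum through CD8 T cells, so their number adds nothing to the summed level. Nkg7 (chr7:43437073-43438249, plus strand), a protein of cytotoxic granules, had 3 UMIs in CD4 and 282 UMIs in CD8 T cells, a ratio of 0.0170 (0.00349 to 0.0503). Ccl5, a chemokine of memory and effector cells, had 5 UMIs in 3 CD4 T cells and 361 UMIs in 53 CD8 T cells, of which a single cell held 127. Eomes, a factor of memory CD8 T cells, had 0 UMIs in CD4 and 37 in CD8 T cells, at least 7.71-fold lower when 3 UMIs over the class are allowed. B cells and fibroblasts, which should lack the gene, had an Nkg7 UMI in 1.74% and 0.501% of cells, against 2.16% of CD4 T cells at median depths of 1454, 2627 and 1834 UMIs.

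The 10 lowest genes relative to CD8 T cells were Nkg7, Ccl5, Ly6c2, Gm44174, Plac8, Klrd1, Eomes, Runx2, AW112010 and Ifngas1. Runx2 had 0 UMIs in CD4 and 31 in CD8 T cells, just over the minimum, and without the cells that carried foreign RNA it was no longer among the 10 lowest, where Fgf13 stood instead. Ly6c2, a surface protein of memory CD8 T cells, had 2 UMIs in CD4 and 219 UMIs in CD8 T cells. Plac8 had 1 UMI and 111 UMIs, and Klrd1, an inhibitory receptor chain of killer cells, 1 UMI and 72 UMIs. Il2rb, the beta chain of the interleukin-2 receptors, stood at 27.0 CPM in CD4 and 158 CPM in CD8 T cells. Ly6c2 and Il2rb were present in few members and many CD8 T cells, with a UMI of Ly6c2 in 1.44% and 36.4% of cells and of Il2rb in 3.60% and 25.7%.

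Promoter sequences are shown because Runx3 and Runx1 differed between the classes, and RUNX proteins bind a short DNA motif. The 300 bases from 250 before to 50 after the annotated start, from the RefSeq tables of GRCm38.p6, were searched for TGTGGT and its reverse complement ACCACA, the core that they bind, on both strands. These letters were chosen after the low genes had been seen. The motif was found in 16.8% of all 32851 promoters. It was in 11 of 14 promoters (78.6%) that matched the cytotoxic and innate-like list, for 13 of its 18 genes, and in 1 of 21 promoters (4.76%) of the naive list, for 11 of its 15 genes. Several of the 11 belong to genes with no or few UMIs in either class, such as Ncr1, Gzmb and Klrb1c, so the share describes the list and not the genes that differed. Among the 10 lowest genes over CD8 T cells without the members described below, 7 were in the table and 4 of their 12 promoters (33.3%) held the motif, those of Nkg7, Ly6c2 and Plac8, while that of Eomes did not. Among the 10 highest it was 1 of 9 promoters (11.1%), that of Runx1. The letters CTTTGA and TCAAAG, the core bound by TCF and LEF factors, were in 3 of 21 promoters (14.3%) of the naive list and 5257 of all 32851 promoters. Sequences are printed 5′ to 3′ for 3 genes that differed in opposite directions, with the motif in capitals: Nkg7 and Runx3, lower in CD4 T cells, and Trat1, higher. The Nkg7 promoter is chr7:43436888-43437187, plus strand, that of Runx3 (the first of its 2 in the table) chr4:135120395-135120694, plus strand, and that of Trat1 chr16:48772013-48772312, minus strand. The second Runx3 promoter in the table and the promoter of St8sia6 held no match, and of the 2 of Zbtb7b 1 did. A match says only that these letters are present in the window.
Nkg7: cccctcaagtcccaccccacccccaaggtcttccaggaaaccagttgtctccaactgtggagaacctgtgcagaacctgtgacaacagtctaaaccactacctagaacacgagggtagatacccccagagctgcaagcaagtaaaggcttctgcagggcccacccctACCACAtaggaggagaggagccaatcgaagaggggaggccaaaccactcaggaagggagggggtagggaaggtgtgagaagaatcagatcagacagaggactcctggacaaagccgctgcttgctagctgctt
Runx3: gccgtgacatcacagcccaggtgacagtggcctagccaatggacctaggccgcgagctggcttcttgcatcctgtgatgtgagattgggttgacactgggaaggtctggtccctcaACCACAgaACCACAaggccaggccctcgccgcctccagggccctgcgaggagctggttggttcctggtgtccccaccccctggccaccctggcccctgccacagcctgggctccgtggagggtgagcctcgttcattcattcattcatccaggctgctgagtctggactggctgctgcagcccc
Trat1: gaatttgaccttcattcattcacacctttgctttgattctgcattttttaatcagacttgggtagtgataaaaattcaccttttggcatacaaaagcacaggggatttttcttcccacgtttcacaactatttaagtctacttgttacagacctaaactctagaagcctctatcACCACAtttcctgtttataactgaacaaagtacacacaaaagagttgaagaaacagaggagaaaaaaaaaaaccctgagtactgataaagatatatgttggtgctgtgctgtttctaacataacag

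The genes highest over CD8 T cells were of different kinds. St8sia6 (chr2:13651021-13794064, minus strand), a sialyltransferase, had 41 UMIs spread over 30 CD4 T cells, never more than 3 in a cell, and 0 UMIs in 206 CD8 T cells, so that it was at least 21.9-fold higher. It had 14 UMIs in regulatory and innate-like T cells and 19 in B cells. Tgfbr3 (chr5:107106570-107289629, minus strand), a coreceptor for TGF-beta, had 61 UMIs in 42 CD4 T cells and 11 UMIs in 9 CD8 T cells, a ratio of 8.87 (4.63 to 18.7). Fibroblasts had Tgfbr3 at 282 CPM, beside 206 CPM in CD4 and 23.2 CPM in CD8 T cells. Fibroblast markers outside the rule stood at 573 CPM in CD4 and 430 CPM in CD8 T cells, and their part in the Tgfbr3 difference was not tested. The other 8 of the 10 highest were Ctnna3, Myh11, Dgkb, Prkg1, Kcnab1, Acta2, Tagln and Tpm1, several of them contractile genes of smooth muscle. Of the 70 Ctnna3 UMIs 69 came from a single member, as did 35 of 35 Myh11 UMIs, 55 of 60 Acta2 UMIs and 39 of 43 Tagln UMIs. That member held 9743 UMIs in all, the most of any, with 7 CD3 UMIs and 1 UMI of Cd4 or Cd40lg.

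With 8 members that carried RNA of another cell type left out, and the same limits applied to the other T cell classes, 131 CD4 and 191 CD8 T cells remained, a step added after the data had been seen. The 10 highest genes over CD8 T cells were then St8sia6, Tgfbr3, Vav3, A630023P12Rik, B630019A10Rik, Tesc, Prkce, Runx1, Rnf19a and Trib2. Vav3, an exchange factor for small GTPases that acts below antigen receptors, had 32 UMIs against 7, a ratio of 7.41 (3.21 to 19.9). Runx1 kept a ratio of 3.98 (2.94 to 5.43) and Tgfbr3 of 8.55 (4.44 to 18.1). In this setting 122 genes were at least 2-fold higher and 98 lower.

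Naive and central T cell genes made up a larger part of the RNA of CD4 T cells than of the CD8, the regulatory and innate-like or the neither class. The 15 genes of this list, among them Lef1, Tcf7, Ccr7, Il7r and S1pr1, summed to 2512 UMIs or 8466 CPM (8139 to 8804) in CD4 T cells, 5940 CPM (5723 to 6164) in CD8 T cells, 5469 CPM in regulatory and innate-like T cells, 5163 CPM in B cells and 3117 CPM in fibroblasts. Over CD8 T cells the summed ratio was 1.43, and 1.27 with TMM factors. The list shares Lef1, Tcf7 and Satb1 with the lineage factors. The rule may set part of the gap to regulatory and innate-like T cells, and that part was not tested. All 15 genes had enough UMIs, 3 were at least 2-fold higher and 0 lower, beside 3.96% and 2.66% of all genes, and the median log2 ratio was 0.60 beside 0.08. Those past 2-fold were Bach2, a repressor that keeps lymphocytes quiescent, at 843 against 411 CPM, Igfbp4, a binding protein of insulin-like growth factors, at 337 against 135 CPM, and Treml2 at 67.4 against 25.3 CPM. With TMM factors Bach2 was not past 2-fold. Treml2 was under the minimum of UMIs in CD8 T cells alone, so the number higher is not used as support. Igfbp4 stood at 1342 CPM in fibroblasts, and its log2 ratio over CD8 T cells was 1.26, and 1.61 with at most 1 collagen UMI per cell. Not every gene of the list was higher. Ccr7, a homing receptor for lymph nodes, stood at 276 CPM in CD4 and 297 CPM in CD8 T cells, a ratio of 0.930 (0.700 to 1.23).

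Within single members the naive list was compared by its number of UMIs, since nearly every cell of any class had 1. At least 1 UMI of the list was present in 139 of 139 members, and also in 100% of CD8 T cells, 97.9% of B cells and 98.9% of fibroblasts. At 800 UMIs per cell, the list had a median of 6.00 UMIs per member (quartiles 4 and 9), 4 in CD8 T cells, 5 in T cells with neither coreceptor and 3 in regulatory and innate-like T cells. A Ccr7 UMI was found in 38.8% of members, and a Cd44 UMI, the classical mark of antigen-experienced T cells, in 13 (9.35%, 5.07 to 15.5). B cells had a Cd44 UMI in 13.5% of cells at a median depth of 1454 and fibroblasts in 34.9% at 2627. The quartile range of the naive list in members overlapped that of each other class plotted.

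**Figure D3:**
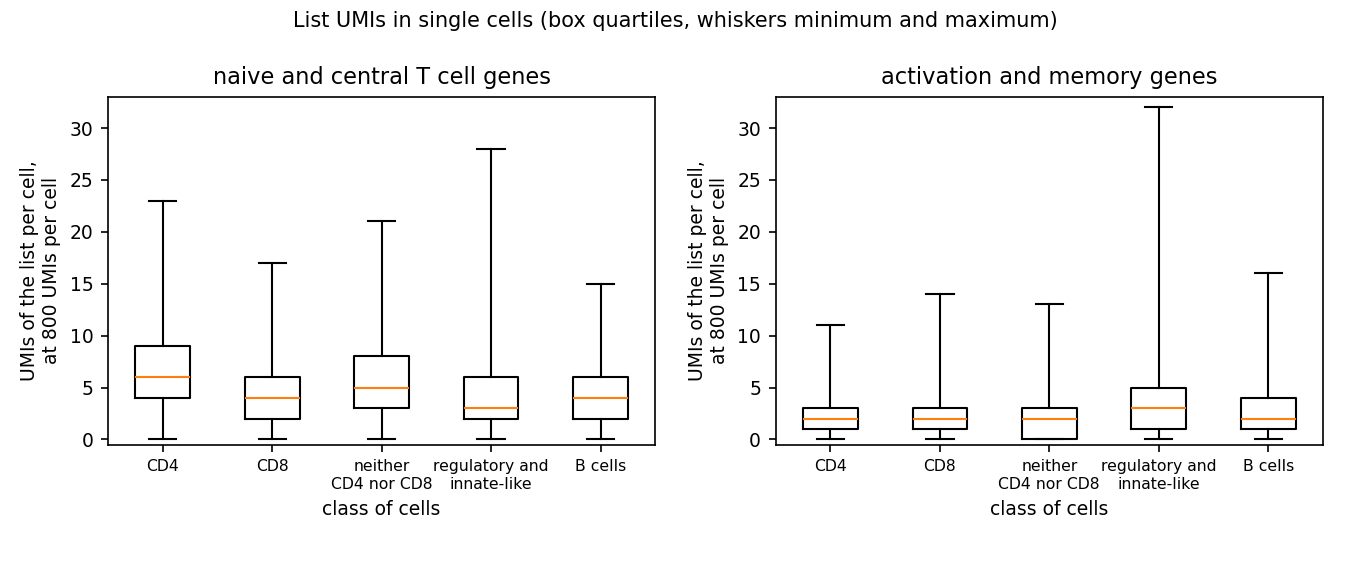
UMIs of the naive list (left) and of the activation and memory list (right) per cell after thinning each cell to 800 UMIs, for 5 classes of cells on the x axis. Boxes give the quartiles with the median as a line, and whiskers run from the lowest to the highest cell. The CD4 box for the naive list has the highest median, 6.00 UMIs, and for the activation list a median of 2 beside 3 in regulatory and innate-like T cells.

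Members that entered by Cd4 and by Cd40lg had overlapping levels of these lists. The 52 with Cd4 alone held 8427 CPM (7911 to 8968) of the naive list and 2285 CPM (2020 to 2575) of the activation list. The 68 with Cd40lg alone held 7944 CPM (7466 to 8443) and 2530 CPM (2264 to 2819), with overlapping intervals. The 19 with both held 9951 CPM (9086 to 10875) of the naive list, above the others, and were deeper, with a median of 2219 UMIs against 1925 and 1652. CD40 ligand is induced on activated helper cells, and the intervals of the activation list overlapped between both single routes.

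Effector helper genes had few UMIs. Of the 20 genes of that list, which holds the cytokines, factors and receptors of the main helper programmes, 14 had 0 UMIs in members, among them Ifng, Il4, Il17a, Il21 and Il2. The list summed to 22 UMIs (74.1 CPM, 46.5 to 112) in 19 members, and 118 CPM with at most 1 collagen UMI per cell, and 13 of the 22 were from Bcl6, the factor of follicular helper cells. The list stood at 131 CPM (100 to 167) in CD8 T cells and 281 CPM (231 to 338) in regulatory and innate-like T cells. The last class was chosen for genes that the rule limits in members, and their part in this gap was not tested. The level of the list in fibroblasts, at 29.7 CPM, was also mostly Bcl6.

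The activation and memory list was lower in CD4 than in regulatory and innate-like T cells. With all members included, its summed intervals overlapped between CD4 and CD8 T cells. The rule may set part of the gap to regulatory and innate-like T cells, since it sorts cells by genes such as Ctla4 and Gzma. That part was not tested. Its 18 genes summed to 2342 CPM (2171 to 2523) in CD4, 2444 CPM (2305 to 2588) in CD8 and 5101 CPM (4882 to 5327) in regulatory and innate-like T cells. Of the 15 genes with enough UMIs over the last class, Ahnak, Cd44, Itgb1, S100a11, S100a4, S100a6, Tnfrsf4 and Tnfrsf9 were at least 2-fold lower, where 3.64% of all genes were lower and 2.08% higher. Of these 8 only S100a6, with 53 UMIs, had 30 or more in CD4 T cells, so the others reached the minimum with the class where they were high and their number is not used as support. S100a4, a calcium-binding protein of memory T cells, had 6 UMIs in 3 CD4 T cells and 126 UMIs in 34 of 152 regulatory and innate-like T cells, 15.6-fold higher there (6.97 to 43.3). Itgb1, an integrin chain raised on memory cells, stood at 43.8 and 183 CPM, and at 26.3 and 184 CPM without the members that carried foreign RNA. Against CD8 T cells, where 3.96% of all genes were higher and 2.66% lower, 2 of 11 genes were at least 2-fold higher, Nr4a1, induced by receptor signalling, at 138 against 37.9 CPM, and Ifi27l2a at 327 against 156 CPM, which was not past 2-fold with TMM factors. None was lower. Without the members that carried foreign RNA, where 98 of 3513 genes in all were lower, 3 of the list were, Ahnak, Itgb1 and S100a11. These 3 had under 30 UMIs in CD4 T cells and reached the minimum with CD8 T cells, so their number is not used as support. The summed ratio of the list over CD8 T cells was then 0.861 instead of 0.959, with no interval computed, so the overlap above is given only for all members.

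The 282 T cells with neither coreceptor were the nearest class to CD4 T cells by the rule, and the comparison asked whether they differed in genes outside it. Of 3643 genes with enough UMIs, 77 (2.11%) were at least 2-fold higher in CD4 T cells and 74 (2.03%) lower, with a median log2 ratio of 0.15 over all genes. The neither class was shallower, with a median of 1339 UMIs against 1834, and digestive enzyme genes took 76762 CPM of it against 19049 CPM. The genes lower in CD4 T cells included all 18 digestive enzyme genes with enough UMIs. By the limits for foreign RNA, 43 of the 282 cells (15.2%) and 8 of the 139 members (5.76%) carried it. The counts of genes were not repeated without them. The cytotoxic and innate-like list stood at 216 CPM in CD4 T cells and 888 CPM (804 to 978) in the neither class, where 20.6% of cells had an Nkg7 UMI against 2.16% of CD4 T cells. The naive list stood at 8466 and 6410 CPM (6181 to 6645), a ratio of 1.32. St8sia6, with 41 and 37 UMIs, had a ratio of 1.72 (1.08 to 2.77), and Runx1 of 1.97 (1.55 to 2.51).

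Over the whole of the regulatory and innate-like class, 3655 genes had enough UMIs, of which 76 (2.08%) were at least 2-fold higher in CD4 T cells and 133 (3.64%) lower. The rule itself requires part of this difference, since that class was chosen for Ikzf2, Ctla4, Izumo1r, Zbtb16, Gzma and Xcl1. The 10 lowest in CD4 T cells were Ccl5, Nkg7, Plac8, S100a4, Trdc, Gm44174, AW112010, Rad51b, Runx2 and Ly6c2. Without the cells that carried foreign RNA Cxcr6 stood among them in place of Runx2. Trdc, the constant chain of gamma delta receptors, had 0 UMIs in CD4 T cells and 36 UMIs in regulatory and innate-like T cells, at least 8.92-fold lower. The 10 highest were Ctnna3, Tagln, Dgkb, Prkg1, Kcnab1, Myh11, Acta2, Dlc1, Tpm1 and Sox6, most of which came largely from the single member described above. Without the 8 members that carried foreign RNA they were St8sia6, Gm12840, Arhgap31, Clk4, Tgfbr3, Rflnb, Trib2, Igfbp4, Prkce and St8sia1, with St8sia6 at a ratio of 4.24 (2.23 to 8.63) and Igfbp4 at 2.72 (1.88 to 3.98).

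**Figure D4:**
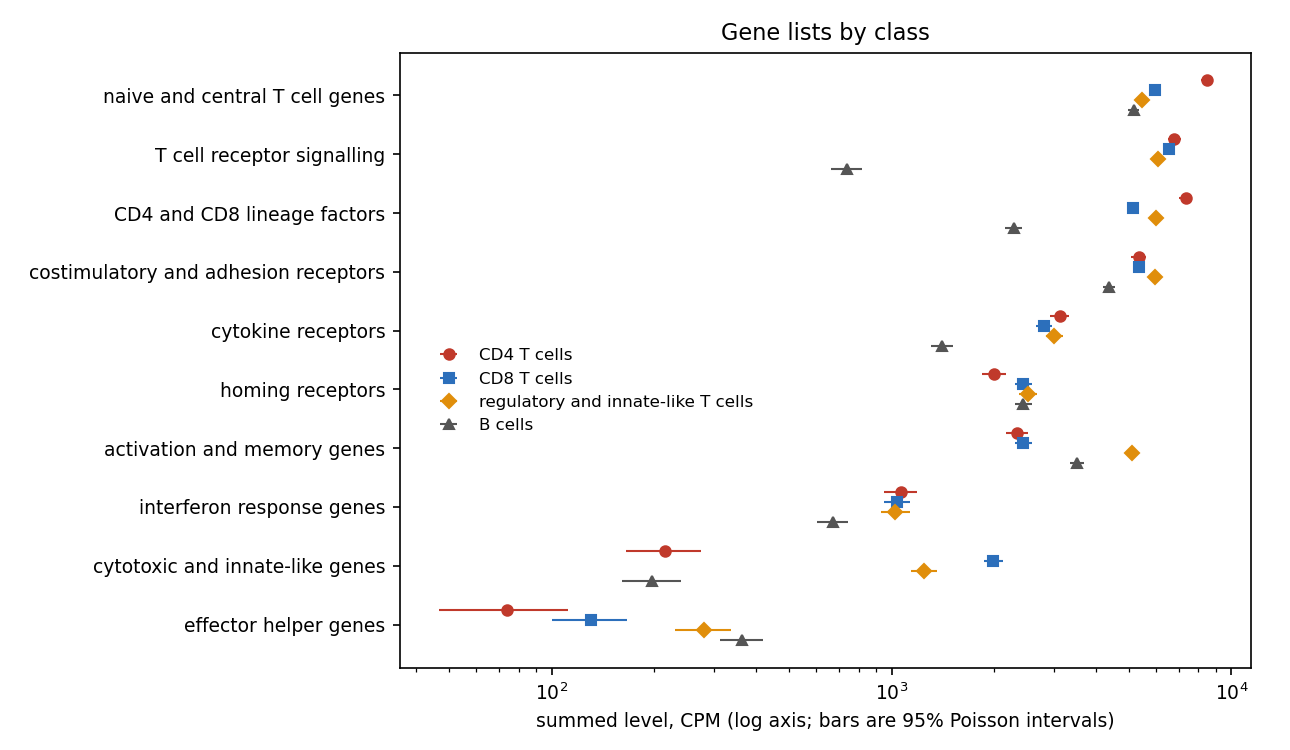
Summed level of 10 gene lists, in CPM on a log x axis, in CD4, CD8, regulatory and innate-like T cells and B cells. Bars are exact 95% Poisson intervals of the summed UMIs. CD4 T cells stand highest for the naive list (8466 CPM), lineage factors (7337 CPM), T cell receptor signalling, cytokine receptors and interferon response genes. They stand lowest for effector helper genes (74.1 CPM), homing receptors and activation and memory genes. For several of these lists the bars of CD4 T cells overlap those of another class.

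The T cell receptor signalling list of 19 genes, with Skap1, Lck and Prkcq, stood at 6781 CPM (6488 to 7084) in CD4 and 6564 CPM (6335 to 6799) in CD8 T cells, at 6076 CPM (5836 to 6322) in regulatory and innate-like T cells, at 5582 CPM (5369 to 5802) in the neither class and at 738 CPM in B cells. Against CD8 T cells 2 of 17 genes were at least 2-fold higher and 0 lower, beside 3.96% and 2.66% of all genes, and the median log2 ratio was 0.10 beside 0.08. These were Trat1 and Rasgrp1, which links the receptor to RAS, at 172 against 69.5 CPM. Trat1 was under the minimum of UMIs in CD8 T cells alone, so the number higher is not used as support. The side on which the summed ratio fell depended on the scaling, 1.03 with totals and 0.918 with TMM factors. Of 17 cytokine receptor genes with enough UMIs, 1 was at least 2-fold higher than in CD8 T cells and 2 lower, beside 3.96% and 2.66% of all genes, and the summed ratio was 1.12 with totals and 0.991 with TMM factors. Ifngr2, a chain of the interferon-gamma receptor, stood at 169 against 56.9 CPM, and the lower genes were its partner Ifngr1, at 84.3 against 187 CPM, and Il2rb, given above. Both lower genes were under the minimum of UMIs in CD4 T cells and reached it with CD8 T cells, and Ifngr2 the reverse. Neither number is thus used as support. In the costimulatory list Cd5, a damper of receptor signals whose level follows signal strength, stood at 209 against 88.5 CPM, and Btla, an inhibitory receptor, at 115 against 48.5 CPM. Ly9, a receptor of the SLAM family, was lower at 23.6 against 63.2 CPM. Of the 15 genes of that list with enough UMIs, these were the 2 higher and the 1 lower, beside 3.96% and 2.66% of all genes, and the summed ratio was 1.00. With TMM factors 0 were higher and 2 lower, Ly9 and Cd226, where 97 of 3762 genes in all were higher and 151 lower. Without the members that carried foreign RNA 2 were higher and 0 lower, where 122 of 3513 genes in all were higher and 98 lower. Ly9 was under the minimum of UMIs in CD4 T cells and reached it with CD8 T cells, and Btla the reverse. Neither number is thus used as support.

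The homing list summed to 2005 CPM (1847 to 2173) in CD4 T cells, 2444 CPM (2305 to 2588) in CD8 T cells and 2520 CPM in regulatory and innate-like T cells. Against CD8 T cells 0 of 12 genes were at least 2-fold higher and 2 lower, Ccr9, a gut-homing receptor, at 16.9 against 82.2 CPM and Cxcr4 at 43.8 against 122 CPM, beside 3.96% of all genes higher and 2.66% lower. Ccr9 had 5 and Cxcr4 13 UMIs in CD4 T cells, so both reached the minimum with CD8 T cells and their number is not used as support. Itgae, the integrin that holds T cells in epithelium, and Cxcr3 had 0 UMIs in CD4 T cells, and Itgae had 27 UMIs in 24 CD8 T cells, both under the minimum of 30. S1pr1, the receptor by which T cells leave lymphoid organs, stood at 489 CPM in CD4 and 377 CPM in CD8 T cells.

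The thymocyte list of 13 genes summed to 307 UMIs (1035 CPM, 922 to 1157) in 112 members, of which 133 were of Themis, a signalling protein that mature T cells keep, and to 1397 CPM (1292 to 1507) in CD8 T cells. The 4 genes of the list with no UMI in CD4 T cells were Rag1, Rag2, Dntt and Ptcra, which act in receptor rearrangement and early selection, where a count of 0 leaves room for 10.1 CPM in each. The library reads the 3′ end of transcripts, and variable segments of the receptor were captured in few cells. Segments of the alpha locus gave 19 UMIs from 14 genes in 16 members (11.5%), with at most 2 UMIs of any gene, and segments of the beta locus gave 9 UMIs from 7 genes in 9 members (6.47%). B cells had 0 UMIs of either kind. No repertoire could be read from these numbers.

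Scap itself, whose alleles are floxed in these mice, had 10 UMIs in 10 CD4 T cells (33.7 CPM, 16.2 to 62.0), 37.9 CPM in CD8 T cells and 28.7 CPM in fibroblasts, with overlapping intervals. Srebf2, which encodes the SREBP2 precursor that SCAP escorts, had 38 UMIs in 25 CD4 T cells (128 CPM, 90.6 to 176) and 48.5 CPM in CD8 T cells, a ratio of 2.64 (1.53 to 4.65). Thinned to 800 UMIs, 4.32% of CD4 and 3.88% of CD8 T cells had a Srebf2 UMI, and with at most 1 collagen UMI allowed per cell its log2 ratio was 0.09 instead of 1.24. Genes of cholesterol and fatty acid synthesis summed to 580 CPM (496 to 673) in CD4 T cells and 411 CPM (355 to 473) in CD8 T cells. Only 4 of the 25 genes had enough UMIs to be compared singly.

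Against B cells, the other lymphocytes of the library, 292 of 4250 genes (6.87%) were at least 2-fold higher in CD4 T cells and 541 (12.7%) lower. Among the 5 highest were Fyb, Cd247, Gm2682 and Bcl11b, and the 5 lowest were Igkc, Iglc2, Ly6d, Bank1 and Iglc1. Cd247, the zeta chain of the receptor complex, had 133 UMIs in CD4 T cells and 0 in B cells, at least 77.2-fold higher. Igkc, the kappa light chain, had 0 UMIs in CD4 T cells and 2206 in B cells. The regulatory T cell list summed to 158 CPM in CD4, 75.8 CPM in CD8 and 604 CPM in regulatory and innate-like T cells, and the cell cycle list to 1284, 1904 and 2160 CPM. MHC class I genes stood at 2952 CPM in CD4 and 3303 CPM in CD8 T cells. Interferon response genes stood at 1065 CPM (951 to 1189) in CD4, 1041 CPM in CD8 and 1027 CPM in regulatory and innate-like T cells and 672 CPM in B cells, and immediate early and heat shock genes, which tissue digestion can induce, at 6158 CPM (5879 to 6447) in CD4, 5443 CPM in CD8 and 6614 CPM in regulatory and innate-like T cells and 8786 CPM in B cells. Fibroblasts had 18770 CPM of the latter.

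Marker lists of other cell types are given whole for CD4 T cells, though some of their genes, such as Ccr7, Gata3 and Pecam1, are also expressed by T cells. Digestive enzyme genes summed to 5652 UMIs (19049 CPM), with Ctrb1 the most abundant, 19 of 20 genes seen, at least 1 UMI in every member and a median of 20 per cell, while the cell with most held 1120. CD8 T cells held 33045 CPM. Red blood cell genes summed to 2645 UMIs, of which 2479 were in a single member. Fibroblast markers outside the rule summed to 170 UMIs (573 CPM), of which 73 were of Sparc, with Pdgfra at 0. Endothelial markers summed to 108 UMIs, of which 95 were of Pecam1, which stood at 453 CPM in B cells, with Plvap and Cldn5 at 0. The endothelial list stood at 364 CPM (299 to 439) in CD4 and 164 CPM (130 to 205) in CD8 T cells. B cell markers outside the rule summed to 89 UMIs, of which 45 were of Cd37 and 42 of Ebf1, with Cd22, Pax5, Vpreb3, Iglc2 and Fcmr among those at 0, and a single member held 26 of the Ebf1 UMIs. The B cell list stood at 300 CPM (241 to 369) in CD4 and 171 CPM (136 to 212) in CD8 T cells. Dendritic cell markers summed to 104 UMIs, of which 82 were of Ccr7, natural killer and innate lymphoid markers to 68, of which 35 were of Gata3, and ligands of the T cell zone to 22. Myeloid markers summed to 6 UMIs, with Lyz2, Csf1r, Adgre1 and Cd68 at 0. The 10 genes most uneven between members, by variance over mean at 800 UMIs per cell, were Hbb-bs, Hba-a1, Hba-a2, Hbb-bt, Ctrb1, Lars2, Reg1, Clps, Try5 and Cd74. Hbb-bs had a variance over mean of 158, against a median of 1.00 over 2733 genes. The part of this RNA in the comparisons above, other than the values given without the 8 members, was not tested.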

How the data were processed

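The authors digested the pancreata with collagenase, removed dead cells, aligned the reads of 1 droplet 3′ library to mm10 with Cell Ranger 7.1.0, per the labels, and deposited counts, that is, UMIs per gene and called barcode, without normalization. The 11789 barcodes held 51540177 UMIs, from 500 to 174899 each, and 10129 were retained with the limits of the study's methods. Classes of cells were cut by gate genes, which were left out of all comparisons of genes. UMIs were summed per class and scaled to CPM with exact 95% Poisson intervals. Shares have exact Clopper-Pearson intervals and ratios exact conditional ones, and a count of 0 was set at 3 UMIs over the class for a bound. Ratios were called past 2-fold after adding 10 CPM, for genes with at least 30 UMIs in both classes together. Cells were thinned to 800 UMIs with a fixed seed. Doublets were scored with Scrublet in scanpy 1.11.5 (3 of 139 members marked, 441 of 10129 cells) and were kept. Neighbours were found in 30 principal components of 2000 variable genes. TMM factors came from edgeR 4.0.16, and sums from pandas 2.3.3, scipy 1.17.1 and numpy 2.4.6 under Python 3.11.15. The functions were tested on simulated data.

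The members and gene lists were chosen with earlier results of these data known. Named were the gate genes, members of the lists, the 10 highest and 10 lowest ratios over CD8 and over regulatory and innate-like T cells, 5 and 5 over B cells, 15 over all other cells, and the 10 genes of most UMIs and of highest variance over mean. Genes of the comparison without foreign RNA and in the neither class were named after their values were seen. Coordinates are from GENCODE M21 on GRCm38, the assembly of mm10, and promoters from RefSeq. No ambient RNA was removed in these steps; the study's methods name such a step, after the counts. A member was said to carry foreign RNA by limits set after seeing the data: at least 5% of UMIs from the enzyme or red blood cell list, at least 5 UMIs of Acta2, Tagln and Myh11, at least 10 of H2-Aa, H2-Ab1 and Cd74, or at least 5 of the B cell list without Ebf1 and Cd37. Some genes that the rule names are not reported here. Alternatives are given in the closing section.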

Additional observations from a re-analysis of the deposited data

Results flagged for a closer look

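Among the 752 barcodes with at most 800 UMIs, which no comparison used, 14 (1.86%, 95% interval 1.02 to 3.10) met every other criterion of the CD4 T cell rule. They held 595 to 792 UMIs each, and the naive list stood at 9047 CPM (7265 to 11133) in them, an interval that includes the 8466 CPM of the members. Of the 832 barcodes with at least 10000 UMIs, 0 met the rule.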

How the results depend on the processing

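No paired analysis was possible because there is 1 library and no replicate. Of 135 values of 11 main quantities, 108 stayed within 1.5 times (counts of genes and cells) or their interval (levels and shares) and 27 moved. The balance of genes higher and lower than in CD8 T cells turned, from 149 and 100 to 128 and 136 with totals that left out mitochondrial, ribosomal protein and enzyme UMIs. The number of CD4 T cells was 90 with a lower limit of 1500 UMIs, 71 with Cd4 alone and 74 with at most 1 collagen UMI, and their share 1.15%, 0.701% and 0.731%, and 1.15% with a CD3 sum of at least 3. Genes higher and lower than in CD8 T cells were 97 and 151 with TMM factors and 666 and 402 with no minimum of UMIs, and 63 were higher with at most 1 collagen UMI. With at most 1 collagen UMI 50 and 80 genes were higher and lower than in regulatory and innate-like T cells and 155 and 356 than in B cells. With no minimum these were 557 and 639, and 822 and 1107. The naive list was 8874 CPM with Cd4 alone, 12359 CPM with those totals, and 8974 CPM without members carrying foreign RNA. The activation list was 2129 CPM with a CD3 sum of at least 3, 3419 CPM with those totals and 2162 CPM without those members, and the effector helper list 118 CPM with at most 1 collagen UMI. Of 598 values of 46 ratios of single genes, 557 moved by at most 1 on the log2 scale, 37 by more, and 4 that had been past 2-fold changed sign. Below 2-fold, Srebf2 and Trat1 over regulatory and innate-like T cells also changed sign, to -0.39 and -0.09 with at most 1 collagen UMI. Over regulatory and innate-like T cells the log2 ratio of Ctnna3 was -0.76 and of Ebf1 -0.59 with at most 1 collagen UMI, and of Myh11 -0.59 with Cd4 alone and -0.64 without the members carrying foreign RNA. The member that held nearly all Ctnna3 and Myh11 UMIs was not among the cells of those alternatives, and the cause of the Ebf1 change was not tested. Limits: the class rests on 1 or 2 UMIs of lowly captured genes in most cells, a count of 0 in the class allows a level of 10.1 CPM, and Scrublet marked only 1 of the 8 members carrying foreign RNA.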
